A study of Rattus norvegicus with 75 samples.

Results

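Actin is the globular protein that polymerises into the filaments of the cell cortex, the junctional belt and the microvilli, and its turnover is set by proteins that hold monomers, sever or cap filaments, or cross-link them. In the collecting duct this cortical network lies under the apical membrane, where vesicles carrying the water channel aquaporin-2 arrive in response to vasopressin, and depolymerisation of apical actin accompanies that arrival. Described here are 10 genes of this network, taken by symbol from a table of 32754 genes: the actins Actb and Actg1, the filament-severing proteins Cfl1 and Dstn, the monomer binders Pfn1 and Tmsb10, the gelsolin-family proteins Scin and Vil1, the calponin-family protein Tagln2, and the PDZ-LIM protein Pdlim1. All 10 were found, each once. They were selected on their measured TPM differences between lithium and control CCD in these same libraries, so those differences are given as a description.

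Male Sprague-Dawley rats weighing 120 to 160 g, for which the labels name no transgene or deletion, gave the kidney tubules, and single segments were microdissected. CCD is the cortical collecting duct, where water, sodium and acid excretion are adjusted. The other segment, cTAL, is the cortical thick ascending limb, a water-impermeable stretch that reabsorbs salt. Controls ate food without lithium, and in the other groups the food held LiCl (40 mM per kg). CCD was sampled at 12 h (3 control and 2 lithium libraries), 24 h (3 and 3), 36 h (3 and 3) and 72 h (17 and 19), and cTAL at 72 h (12 and 10), which makes 75 libraries. Lithium given in this way leads to nephrogenic diabetes insipidus, a loss of the response of the collecting duct to vasopressin. Nothing in the labels ties a library to a rat, so each standard error and call measures the scatter among libraries alone, part of which may be technical.

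Values are TPM, a relative transcript abundance that is corrected for gene length and library size. Sequencing depth is unknown, and between 10888 and 12411 genes reached 1 TPM in a library. The labelled segments carried their own markers: the summed TPM of 8 principal cell markers was 15125 in control CCD and 121 in control cTAL at 72 h, and that of 6 thick ascending limb markers was 101.3 and 72570. Outside the members, 6 genes (H3f3c, Mrps10, Pfdn6, Repin1, Slc39a1 and Stk11) lay at 1 of 2 levels in each library. They were chosen for both levels in a CCD group at 72 h and in each segment. Few switches of level along the library numbers (at most 10) were also required, which favours runs of consecutive numbers. By their patterns, noticed in the data, each group at 72 h fell into 4 library sets of consecutive numbers. Each early group was a single set. The labels do not say what the libraries of a set share. Differences are lithium minus control on log2(TPM + 1) with their standard error (SE), and a gene is called where limma's adjusted p over all tested genes was under 0.05.

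The first 250 bases before the annotated start were available for 9 of the 10 genes from RefSeq (GRCr8), a later build than that of the values. The 4 shown are those of 3 genes whose lithium and control CCD libraries did not overlap at 72 h (Dstn, Tagln2 and Pdlim1) and of the actin Actg1, which was not called then. Each is written 5′ to 3′ towards the start of the gene. Capitals mark matches on either strand to the CArG box, the binding sequence of serum response factor, to GGAATG, a TEAD site, and to GGGCGG, the GC box of Sp1.
Actg1: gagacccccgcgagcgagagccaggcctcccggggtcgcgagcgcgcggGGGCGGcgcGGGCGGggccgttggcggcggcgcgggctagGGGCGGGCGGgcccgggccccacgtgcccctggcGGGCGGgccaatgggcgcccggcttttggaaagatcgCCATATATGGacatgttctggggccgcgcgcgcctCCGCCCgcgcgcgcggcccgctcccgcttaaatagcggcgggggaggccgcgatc
Dstn: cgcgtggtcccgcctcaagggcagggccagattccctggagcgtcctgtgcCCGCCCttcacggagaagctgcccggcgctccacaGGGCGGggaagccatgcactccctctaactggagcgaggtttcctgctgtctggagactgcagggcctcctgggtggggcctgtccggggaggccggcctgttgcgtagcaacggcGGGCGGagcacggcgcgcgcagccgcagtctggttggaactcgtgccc
Tagln2: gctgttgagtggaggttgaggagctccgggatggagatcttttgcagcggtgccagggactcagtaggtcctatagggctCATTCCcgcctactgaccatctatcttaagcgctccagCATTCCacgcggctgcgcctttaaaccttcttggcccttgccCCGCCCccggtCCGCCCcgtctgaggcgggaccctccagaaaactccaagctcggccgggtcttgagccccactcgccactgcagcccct
Pdlim1: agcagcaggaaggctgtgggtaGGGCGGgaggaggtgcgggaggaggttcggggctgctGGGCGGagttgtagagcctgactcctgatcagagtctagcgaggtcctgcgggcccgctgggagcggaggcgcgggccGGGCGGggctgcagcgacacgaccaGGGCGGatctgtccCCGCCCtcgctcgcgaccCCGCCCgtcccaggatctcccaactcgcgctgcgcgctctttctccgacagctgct
They lie at chr10:106120952-106121201 (minus strand), chr3:151737789-151738038 (plus), chr13:87499158-87499407 (plus) and chr1:249040410-249040659 (minus), in that order. Of the 9 sequences only that of Actg1 held a CArG box, 90 to 81 bases before its start, against 1.5% of 33469 promoters of the same length. GGAATG occurred in Tagln2 and Pfn1 (12.1% of all), and GGGCGG in 8 of 9 (30.5% of all), all but Scin. TGANTCA, an AP-1 site, and TATAAA were in none of the 9 (6.34% and 12.9% of all). GGGCGG matches can overlap each other, as in Actg1 and Cfl1. A match is a stretch of letters and no evidence of binding.

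In CCD at 72 h, Pdlim1, Tmsb10, Dstn, Tagln2, Cfl1, Actb and Pfn1 were higher in lithium libraries, while Actg1 and Scin were not called. Limma called 7 of the 9 tested members, all higher, beside 37.3% of 11644 genes called in either direction, 22.0% higher and 15.2% lower. The members were selected on this contrast. Their median log2 difference was 0.58, against -0.00 over all genes. In cTAL at 72 h limma called none of the 9 tested members, beside 0.701% of 11702 genes (0.111% higher and 0.590% lower), and 1 of the 9, Pdlim1, had an unadjusted p under 0.05. At 12 h 2 of 10 members were called, both higher, beside 10.4% of 12998 genes (7.10% higher and 3.30% lower). At 24 h 7 were called, 4 higher and 3 lower, beside 23.6% (18.3% and 5.30%), and at 36 h 6, all higher, beside 32.2% (23.7% and 8.50%). The median of all genes lay at 0.13 at both 24 and 36 h, and median-of-ratios scaling moved it to -0.01 and -0.00, so differences of that size at these times follow the scaling. The plot of TPM by library shows the 10 genes in all groups.

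**Figure D1:**
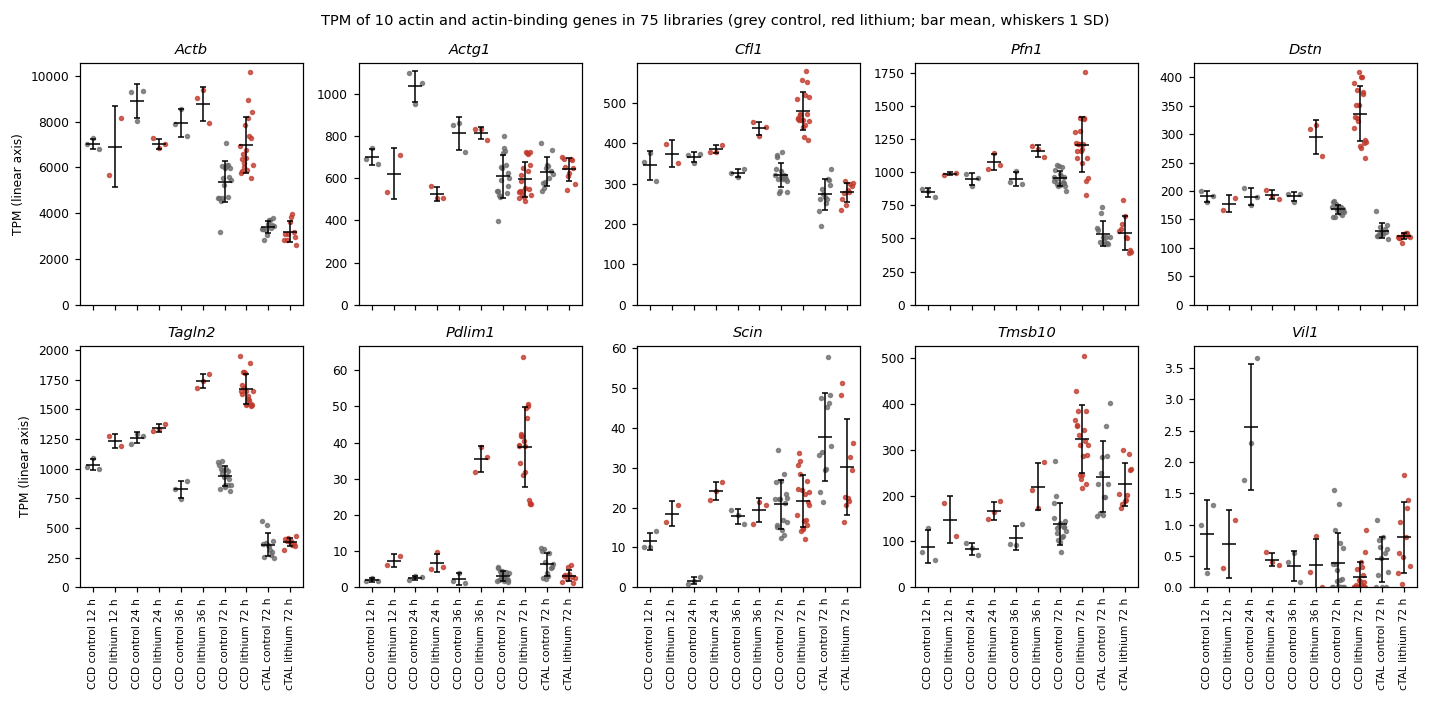
TPM on a linear axis from 0 for 10 genes in each of 75 libraries, by segment, treatment and time; points are libraries (grey control, red lithium), bars give the mean and whiskers 1 SD. Pdlim1 in lithium CCD lies at 22.94 to 63.65 TPM at 72 h, above all 17 controls, while cTAL shows no such separation.

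Actb, which encodes the beta-actin of nonmuscle cells, was the most abundant of the 10 in every group. In CCD it took 62.6% ± 4.2 (SD, n = 17) of their summed TPM in controls at 72 h and 59.6% ± 3.25 (n = 19) with lithium. At 72 h the control CCD libraries ran from 3162 to 7053 TPM with a median of 5532, and the lithium libraries from 5542 to 10174 with a median of 6577. The groups overlapped: 7 of 19 lithium libraries lay above the highest control. The log2 difference was 0.38 (SE 0.082). On means of the library sets it was 0.40 (SE 0.141) and no longer called, and the control sets themselves ran from 4251 TPM (libraries 1 to 4) to 6284 (libraries 9 to 12).

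At the earlier times Actb was lower with lithium or not called. At 24 h the controls were at 9309, 8030 and 9314 TPM and the lithium libraries at 7259, 6825 and 7008, so every lithium library was lower, with a difference of -0.33 (SE 0.112). It was called in only 6 of 15 alternative analyses. They ran from -0.495 to -0.067, and quantile normalization gave the smallest fall. The 2 lithium libraries of 12 h, at 5643 and 8143 TPM, lay on either side of the 3 controls (6802 to 7264). At 36 h the ranges of 7355 to 8554 and 7938 to 9369 overlapped. In cTAL, Actb ran from 2829 to 3766 TPM in controls and from 2596 to 3981 with lithium, a difference of -0.10 (95% interval -0.25 to 0.05).

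Actg1, the gamma-actin gene, encodes a protein that differs from beta-actin at only a few residues. It was lower with lithium at 24 h, where controls held 1102, 954 and 1053 TPM and lithium libraries 566, 508 and 507, a difference of -0.97 (SE 0.097). The lowest control there was well above the highest lithium library, and the control mean of 1036 TPM was the highest of the 10 groups. At 72 h in CCD, controls ran from 397 to 801 TPM (median 599) and lithium libraries from 492 to 727 (median 553), a difference of -0.03 (95% interval -0.18 to 0.12). At 36 h it was 0.01 (SE 0.097). On set means the fall at 24 h was not called, although its size was unchanged; there each early group counts as 1 value and the spread is borrowed from the 72 h sets. The 2 transcripts share much of their coding sequence, so the division of reads between them rests on the authors' estimation.

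The ratio of Actb to Actg1 within a library kept the treatments apart at 72 h, which neither gene did alone. At 72 h in CCD it was 8.81 ± 0.551 (SD, n = 17) in controls and 11.7 ± 1.38 (n = 19) with lithium, and the lowest lithium library (10.1) lay above the highest control (9.92). At 24 h it was 8.57 ± 0.238 and 13.4 ± 0.495 (n = 3 each). At 36 h it was 9.77 ± 0.493 and 10.7 ± 0.558, and the lowest lithium library (10.1) lay just inside the control range (up to 10.2). In cTAL the ratio was 5.4 ± 0.47 (n = 12) and 4.99 ± 0.78 (n = 10), so Actg1 made up more of the actin transcripts there in both groups.

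Cfl1 and Dstn encode cofilin-1 and destrin, paralogs of the ADF/cofilin family that sever filaments and release monomers from their pointed ends. For Cfl1 at 72 h in CCD the controls ran from 276 to 379 TPM (median 316) and the lithium libraries from 408 to 580 (median 462). No lithium library overlapped the controls, and the difference was 0.58 (SE 0.047). For Dstn the controls ran from 154 to 183 TPM (median 168) and the lithium libraries from 257 to 410 (median 330). They were also fully apart, with a difference of 0.99 (SE 0.055) and a ratio of means of 2.0. Together with Tagln2 and Pdlim1 they made 4 of the 9 tested members with every lithium library above every control at 72 h, beside 1.71% of all genes.

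At 36 h Dstn stood at 310, 316 and 261 TPM with lithium and 195, 181 and 195 in controls, a difference of 0.63 (SE 0.083). At 12 h and 24 h its differences were -0.10 (SE 0.093) and 0.02 (SE 0.083), and the ranges overlapped. Cfl1 at 36 h was 452, 419 and 441 TPM with lithium against 327, 317 and 336, a difference of 0.42 (SE 0.074), which median-of-ratios scaling lowered to 0.27 and out of the called genes. It was not called at 12 h or 24 h (0.12, SE 0.082, and 0.08, SE 0.074). The within-library ratio of Cfl1 to Dstn was 1.45 ± 0.208 (SD, n = 19) against 1.91 ± 0.197 (n = 17) at 72 h in CCD. The ranges of the ratio, 1.11 to 2.0 with lithium and 1.55 to 2.42 in controls, overlapped.

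The 4 lithium sets of CCD at 72 h averaged 348, 328, 386 and 279 TPM of Dstn, and the 4 control sets 172, 167, 167 and 165. The control sets thus hardly differed, and 58.2% of the log2 variance among lithium libraries lay between sets against 9.7% among controls. Both genes were also called on set means at 72 h, at 0.58 (SE 0.078) for Cfl1 and 0.98 (SE 0.095) for Dstn, and neither was at 36 h, where limma's adjusted p was 0.184 and 0.107. In cTAL, Cfl1 ranged from 195 to 336 TPM in controls and 234 to 307 with lithium (difference 0.03, 95% interval -0.13 to 0.19). Dstn ranged from 116 to 165 and 109 to 126 (difference -0.11, 95% interval -0.23 to 0.01). Neither was called.

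**Figure D2:**
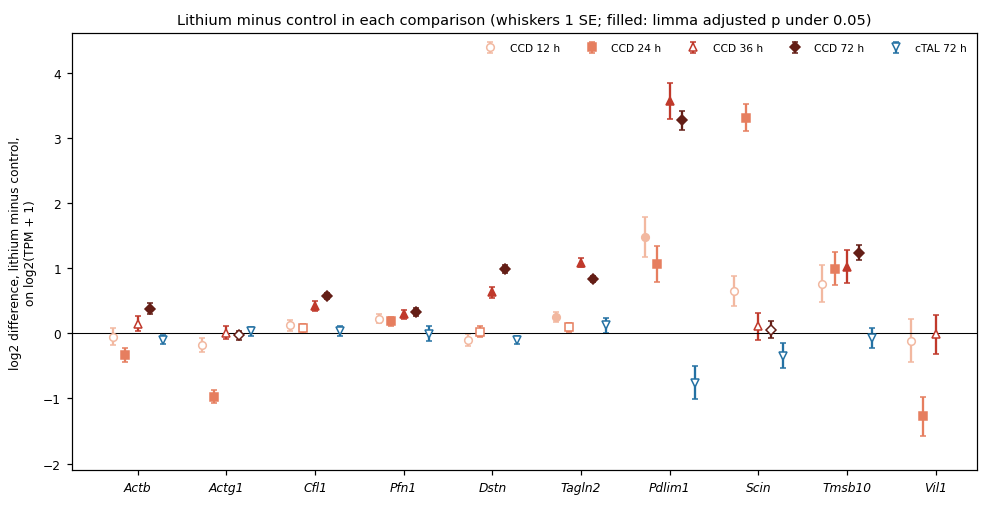
Log2 difference, lithium minus control, on log2(TPM + 1), for each gene and comparison; whiskers are 1 SE and filled symbols are called by limma (adjusted p under 0.05 over all tested genes). Pdlim1 is near 3.56 at 36 h and 3.27 at 72 h in CCD, Scin at 3.31 at 24 h, and no cTAL symbol is filled.

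Pfn1 encodes profilin-1, which binds monomers and feeds them to growing ends. In CCD at 72 h the controls ran from 854 to 1052 TPM (median 949) and the lithium libraries from 828.6 to 1755 (median 1209). The lithium group held both the lowest and the highest library, and 16 of 19 were above the highest control. The difference was 0.32 (SE 0.062). The fourth lithium set (libraries 16 to 19) averaged 954 TPM, inside the control range, while the other 3 sets averaged 1203, 1224 and 1443, and on set means Pfn1 was not called (0.31, SE 0.111). At 36 h it was 1197, 1171 and 1111 TPM with lithium and 927, 1010 and 913 without, a difference of 0.29 (SE 0.063). At 24 h the difference was 0.18 (SE 0.063). Under median-of-ratios scaling neither time was called, with 0.14 at 36 h and 0.02 at 24 h, and the call at 24 h held in 6 of 15 alternative analyses. At 12 h the lithium libraries (979 and 997 TPM) were above the controls (812 to 875), with a difference that was not called (0.22, SE 0.071). In cTAL, Pfn1 was 536 ± 92.2 TPM (n = 12) in controls and 541 ± 127 (n = 10) with lithium.

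Tmsb10 encodes thymosin beta-10, a small protein that sequesters monomers. At 24 h the controls were at 95.7, 85.9 and 70.2 TPM and the lithium libraries at 149, 163 and 189, with no overlap and a difference of 0.99 (SE 0.256). At 36 h controls were at 94.3, 91.3 and 137 TPM and lithium libraries at 212, 172 and 274, again apart, with 1.02 (SE 0.256). At 72 h controls ran from 77.7 to 276 (median 132) and lithium libraries from 217 to 504 (median 320). Of the 17 controls 1 library, at 276 TPM in the first set, reached into the lithium range, and the difference was 1.23 (SE 0.117). That control set averaged 202 TPM and the other 3 between 107 and 129. It was called on set means at 72 h (1.22, SE 0.187), and at 24 and 36 h it was not. At 12 h its difference was 0.76 (SE 0.286) and not called.

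Tmsb4x, the paralog that is by far the more abundant thymosin in CCD, was not called at 72 h. Its mean was 2237 ± 481 TPM in controls and 2358 ± 365 with lithium at 72 h (difference 0.09, SE 0.083), and at 36 h 1986 and 1934 TPM. Of the 4 CCD times it was called only at 12 h, where it rose from 1265 ± 80 (n = 3) to 1998 ± 138 TPM (n = 2), a difference of 0.66 (SE 0.132). The within-library ratio of Tmsb10 to Tmsb4x was 0.0612 ± 0.00801 in control and 0.136 ± 0.016 in lithium CCD at 72 h, and the highest control (0.0768) lay below the lowest lithium library (0.107). In CCD at 72 h the summed TPM of 14 immune markers was 260 in controls (24.3 to 636 over libraries) and 372 with lithium (159 to 1154), 12 of the 14 averaged at least 1 TPM in each group, and none was at 0 in every library. The difference of the sum lay in Cd74, at 133 and 247 TPM, and the other 13 markers summed to 127 (16.8 to 304) and 125 (49.4 to 304) TPM. Thymosins are abundant in such cells, and their part in the result was not tested.

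**Figure D3:**
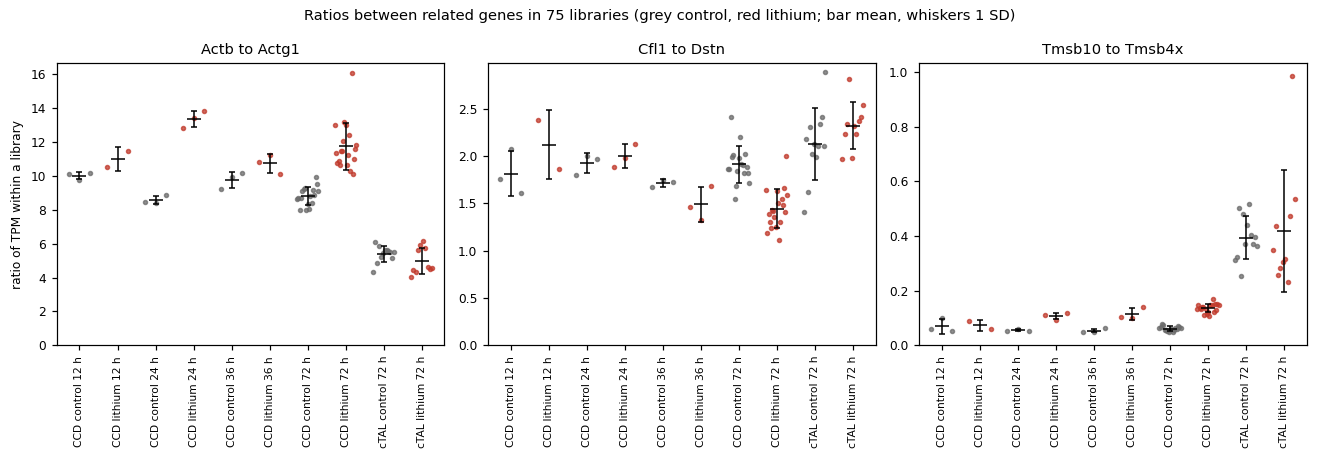
Ratio of TPM within each of 75 libraries for 3 pairs of related genes, by group; points are libraries (grey control, red lithium), bars give the mean and whiskers 1 SD. In CCD at 72 h the Actb to Actg1 ratio is 8.81 in controls and 11.7 with lithium, and that of Tmsb10 to Tmsb4x is 0.0612 and 0.136.

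Tagln2 encodes transgelin-2, which bundles filaments. At 36 h the controls were at 832, 747 and 895 TPM and the lithium libraries at 1679, 1741 and 1800. Every lithium library was above every control, with a difference of 1.08 (SE 0.068). At 72 h controls ran from 808 to 1062 (median 938) and lithium libraries from 1526 to 1952 (median 1654), again without overlap, and the difference was 0.84 (SE 0.042). Of the 10 genes this was the smallest SE in that comparison. The 4 lithium sets averaged 1763, 1647, 1669 and 1567 TPM and the control sets 981, 987, 912 and 884. Tagln2 was called on set means at both times.

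At 12 h Tagln2 differed by 0.25 (SE 0.076), from 1018, 1088 and 999 TPM to 1272 and 1188, a call that held in only 4 of 14 alternative analyses and, under median-of-ratios scaling, was lost at 0.19. At 24 h controls held 1206, 1294 and 1278 TPM and lithium libraries 1314, 1337 and 1379, a difference of 0.09 (SE 0.068) that was not called. The control level itself moved between 825 TPM at 36 h and 1259 TPM at 24 h. In cTAL, controls ran from 250 to 561 TPM and lithium libraries from 317 to 431, a difference of 0.12 (95% interval -0.12 to 0.36).

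Pdlim1 encodes a PDZ-LIM protein that binds alpha-actinin at stress fibres and had the largest lithium difference of the members at 12, 36 and 72 h. At 12 h the controls were at 1.68, 2.51 and 1.86 TPM and the lithium libraries at 6.21 and 8.6, and at 24 h at 2.05, 3.22 and 2.73 against 5.12, 9.67 and 5.65. These levels were low but did not overlap, with differences of 1.47 (SE 0.309) and 1.06 (SE 0.276). At 36 h the controls were at 1.71, 4.07 and 1.15 TPM and the lithium libraries at 31.8, 38.8 and 36.0. The difference there was 3.56 (SE 0.276), a ratio of means of 15.4. At 72 h controls ran from 1.36 to 5.6 (median 2.5) and lithium libraries from 22.9 to 63.7 (median 39.3), with 3.27 (SE 0.144) and a ratio of 12.2.

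The lithium CCD libraries of 72 h differed among themselves in Pdlim1 mainly by set. The fourth set lay at 22.9 to 24.1 TPM and the other 3 between 30.98 and 63.65, and 76.5% of the log2 variance lay between sets, against 20.9% in controls. Leaving out that set gave a difference of 3.44. On set means Pdlim1 was called at 36 h and 72 h and not at 12 h or 24 h. Over the 10 groups the order of means was lithium CCD at 72 h and 36 h, then lithium CCD at 12 h (7.41 TPM) and 24 h (6.81), control cTAL (6.41), lithium cTAL (3.24), and the 4 control CCD groups (2.02 to 3.17). From the third place down each group's range overlapped that of the next.

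Pdlim1 in cTAL ran from 2.31 to 10.8 TPM in controls (median 6.04) and from 1.32 to 6.05 with lithium (median 2.95). The groups overlapped and the gene was not called (-0.76, SE 0.248), except without the third control set (libraries 6 to 8), which gave -1.01. The difference of the lithium effects, CCD minus cTAL, was 4.02 (SE 0.271).

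Scin encodes scinderin, a calcium-dependent protein that severs and caps filaments. Its largest difference was at 24 h, where the controls were at 0.76, 1.66 and 2.53 TPM and the lithium libraries at 22.0, 24.3 and 26.5, a difference of 3.31 (SE 0.209). Among the CCD groups the 24 h controls stood apart. Controls at 12 h were at 10.2, 10.2 and 14.0 TPM, those at 36 h at 19.4, 18.1 and 15.9, and those at 72 h between 12.4 and 34.6, whereas the 4 lithium CCD groups averaged 18.5, 24.3, 19.3 and 21.8 TPM. At 36 h and 72 h the differences were 0.11 (SE 0.209) and 0.06 (SE 0.133), neither called, with a 95% interval of -0.21 to 0.33 at 72 h. At 12 h it was 0.65 (SE 0.234), not called, though both lithium libraries (16.4 and 20.7) were above all controls. In cTAL it ran from 21.4 to 57.8 TPM in controls and 16.4 to 51.3 with lithium, and 94.0% of the log2 variance among lithium libraries lay between sets.

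Vil1, which encodes villin, the bundling and severing protein of brush border microvilli, was low. Its mean was below 1 TPM in 9 of 10 groups, and at 72 h it did not pass the filter of 1 TPM in either segment. It was highest in control CCD at 24 h, at 1.72, 2.3 and 3.67 TPM against 0.56, 0.4 and 0.36 with lithium, a difference of -1.27 (SE 0.297). The summed TPM of 12 proximal tubule markers, cells that carry a brush border, was 1195 (693 to 2115) in those 3 controls and 244 (183 to 278) in the lithium libraries, and 11 and 9 of the 12 averaged at least 1 TPM. In the other CCD groups that sum averaged between 145 and 318 TPM. The same 3 controls gave the highest Actg1 and the lowest Scin. The part of such cells in these differences was not tested. In bulk segments, fewer cells of a type and less RNA per cell cannot be told apart.

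Between control segments at 72 h, 8 of 9 tested members were called, beside 67.2% of 13083 genes. Higher in CCD were Tagln2 (937 against 360 TPM, log2 1.42, SE 0.073), Pfn1 (954 against 536, 0.85, SE 0.084), Actb (5372 against 3395, 0.65, SE 0.083), Dstn (168 against 130, 0.37, SE 0.056) and Cfl1 (321 against 274, 0.24, SE 0.059). Lower in CCD were Scin (20.8 against 37.7 TPM, -0.82, SE 0.161), Tmsb10 (139 against 241, -0.79, SE 0.137) and Pdlim1 (3.17 against 6.41, -0.77, SE 0.188). Actg1, at 610 against 632 TPM, was not called (95% interval -0.21 to 0.08). The median of all genes was 0.25 in this contrast and 0.01 after median-of-ratios scaling, under which Cfl1 turned to -0.05 and Dstn to 0.09, neither called, while Actg1 became -0.35 and was called. Of all genes 46.9% were called higher in CCD and 20.3% lower, 6133 and 2662 genes, against 3779 and 3965 after that scaling. The immune marker sum was 3792 TPM (2157 to 6576) in control cTAL and 260 in control CCD, with 14 and 12 of 14 markers averaging at least 1 TPM. Its part in these differences was not tested.

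Sets were numbered within each group in the order of their libraries, and the segments are set side by side here by set number. Whether sets of the same number share the pattern of the 6 genes in both segments is not established here. Actb was higher in CCD by 0.34 to 0.78 on the log2 scale in the 4 control sets and by 1.06 to 1.22 in the 4 lithium sets, with no overlap. Tagln2 was higher in CCD in each of the 4 control sets (log2 0.80 to 1.56) and each of the 4 lithium sets (2.04 to 2.29). Dstn differed by 0.06 to 0.42 in control sets and by 1.19 to 1.63 in lithium sets, with no overlap. Cfl1 differed by -0.04 to 0.59 in control sets and 0.63 to 0.92 in lithium sets. Tmsb10 was higher in CCD in the first control set (0.34), lower in the other 3 (-1.26 to -0.81) and higher in all 4 lithium sets (0.15 to 0.97). For Pdlim1 all 4 control sets were lower in CCD (-1.43 to -0.26) and all 4 lithium sets higher (2.95 to 3.64). The first control set of cTAL is a single library, which had the highest control Dstn (165 TPM), Tagln2 (561) and Pdlim1 (10.8) of that segment.

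**Figure D4:**
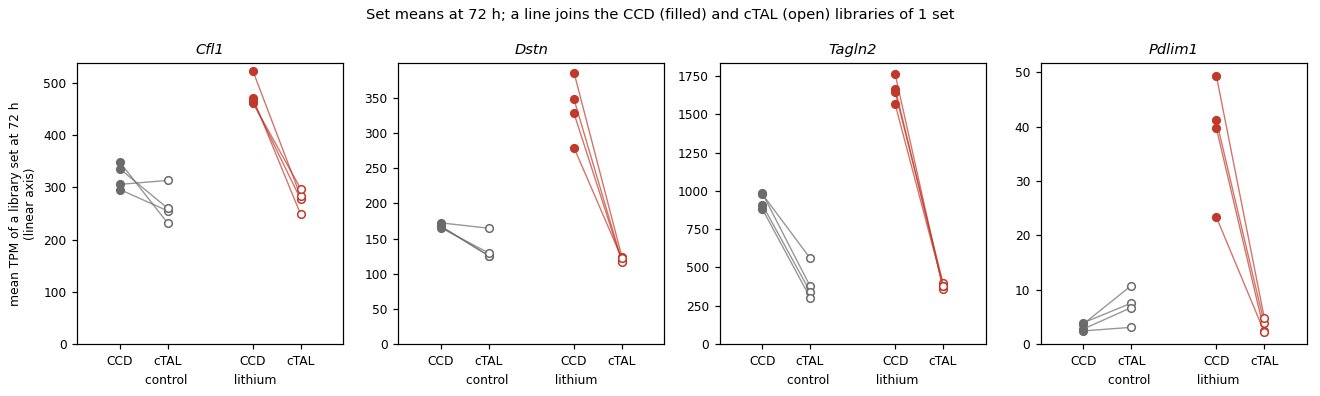
Mean TPM at 72 h (linear axis from 0) of each library set in CCD (filled) and cTAL (open), for control (grey) and lithium (red). A line joins sets of the same number, which are numbered within each group. Lithium CCD sets of Dstn lie at 279 to 386 TPM, above all other points, and the CCD to cTAL step is steeper with lithium for all 4 genes.

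The lithium effect in CCD minus that in cTAL was called for 6 of 9 members, beside 15.3% of genes (11.8% higher and 3.44% lower): Pdlim1, Tmsb10 (1.30, SE 0.197), Dstn (1.09, SE 0.081), Tagln2 (0.71, SE 0.106), Cfl1 (0.54, SE 0.084) and Actb (0.48, SE 0.12). All were larger in CCD. The members were selected on lithium differences in CCD. Those differences enter this contrast and the F test below, so both counts are descriptions. On set means Actb was no longer called (0.49, SE 0.186) and the other 5 were, in a fit that did not pair the segments by set. Over 12, 24, 36 and 72 h in CCD the F test of a changing lithium effect called 7 of 10 members, beside 8.43% of 14105 genes. Pfn1, Tmsb10 and Vil1 were not called. None of the members was called on set means, where each early group is a single value, and 17 genes of all were. The principal cell marker sum fell from 15125 to 10869 TPM and the intercalated cell sum from 9403 to 6531 between control and lithium CCD at 72 h, all 8 and 7 markers averaging at least 1 TPM. At 36 h the principal cell sum was 19874 TPM in controls and 9391 with lithium, and the intercalated cell sum 7752 and 6847. The summed TPM of 9 endothelial markers was 219 and 93.2 at 36 h, with 9 and 8 averaging at least 1 TPM, and 79.8 and 36.0 at 72 h, with 8 and 5. The part of cell composition in the members' values was not tested.

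Over all lists together, the rest of the actin machinery was called with lithium in CCD at shares near or below those of all genes, while single lists lay on both sides. Of 146 genes in 9 lists without members, 128 were tested at 36 h, with 29 higher and 5 lower (26.6%, beside 32.2% of all genes). At 72 h in CCD 119 were tested, with 28 higher and 17 lower (37.8%, beside 37.3%) and a median log2 of 0.01 against -0.00 over all genes. At 24 h 17 were higher and 6 lower of 128 (18.0%, beside 23.6%), and at 12 h 8 and 4 (9.38%, beside 10.4%). Between control segments 65 were higher in CCD and 30 lower of 127 (74.8%, beside 67.2%). In cTAL limma called none of 122, beside 0.701% of all genes. On set means 11 were higher and 4 lower at 72 h in CCD, beside 15.1% of all genes, none was called at 12 h, Espn alone at 24 h and Diaph3 alone at 36 h. Of the genes that follow, the other calls at 24 h and 36 h were thus lost on set means, as were those at 72 h of Twf2, Gsn, Cnn3, Arpc3, Fmnl2, Zyx, Eps8, Mkl1 and Actc1. These lists were written with results known as well, and 143 of the listed symbols matched a single gene.

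Among monomer binding, severing and capping proteins 5 of 22 were higher and 2 lower at 72 h in CCD (31.8% called, beside 37.3% of all genes). Capg, a capping protein of the gelsolin family, rose from 13.9 ± 8.43 to 29.3 ± 11.2 TPM (log2 1.15, SE 0.232), and Twf2, a twinfilin, from 10.9 ± 1.95 to 14.7 ± 1.77 (0.42, SE 0.078). Gsn, gelsolin itself, fell from 1014 ± 141 to 827 ± 105 TPM (-0.29, SE 0.066), and Capza2, a subunit of the barbed-end capping protein, from 193 ± 11.6 to 163 ± 21.3 (-0.25, SE 0.056). At 36 h Capza1 and Coro1c were higher by 0.51 (SE 0.091) and 0.82 (SE 0.165) and Tmod1 was lower (-0.47, SE 0.151). Of 23 tested then, 6 were higher and 1 lower (30.4%, beside 32.2% of all genes).

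Among myosin, tropomyosin and calponin genes 6 of 16 were higher and 3 lower at 72 h (56.2% called, beside 22.0% higher and 15.2% lower of all genes). The tropomyosins Tpm1 and Tpm3, which coat filaments, rose from 278 ± 48.3 to 452 ± 117 TPM (0.68, SE 0.093) and from 166 ± 15.6 to 215 ± 26.9 (0.37, SE 0.055). Both were also higher at 24 h and 36 h. Cald1, caldesmon, fell from 18.8 ± 4.93 to 10.5 ± 3.0 TPM (-0.81, SE 0.129) and Cnn3, a calponin, from 761 ± 93.1 to 637 ± 71.6 (-0.26, SE 0.058), and both were also lower at 36 h.

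PDZ-LIM and LIM genes gave 5 higher and 1 lower of 12 at 72 h (beside 22.0% and 15.2% of all genes), and 6 higher of 13 at 36 h (beside 23.7% higher). Pdlim4, a relative of Pdlim1, differed by 1.41 (SE 0.155), from 0.365 ± 0.677 to 2.51 ± 1.01 TPM, against 38.7 TPM of Pdlim1 with lithium. Fhl1 rose by 0.82 (SE 0.159) to 2.32 ± 1.05 TPM, and Pdlim5 was lower (-0.39, SE 0.099). Of 9 Arp2/3 complex genes, which nucleate branches, 4 were higher at 72 h (44.4%, beside 37.3% of all genes called in either direction). Arpc3 led them (233 ± 22.9 to 289 ± 28.8 TPM, 0.31, SE 0.05), and none of 10 was called at 36 h (beside 32.2%). Nucleation promoters and formins split into 3 higher and 4 lower of 17 at 72 h (41.2%, beside 37.3% of all genes). Diaph3, a formin, differed by 2.15 (SE 0.243) at 24 h, 2.46 (SE 0.243) at 36 h and 1.09 (SE 0.262) at 72 h, and Fmnl2 was lower at 72 h (-0.63, SE 0.149).

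Crosslinkers and adhesion linkers gave 3 higher and 2 lower of 17 at 72 h (29.4%, beside 37.3% of all genes). Among those higher were Zyx, zyxin of focal adhesions (11.9 ± 2.31 to 17.7 ± 4.1 TPM, 0.52, SE 0.101), and Plek2, a pleckstrin, from 0.588 to 1.68 TPM (0.77, SE 0.11). At 36 h 4 of 18 were higher (22.2% called, beside 32.2% of all genes), with Flna, filamin A, at 25.4 and 71.4 TPM (1.47, SE 0.273) and Actn1, an alpha-actinin, at 4.95 and 11.6 (1.12, SE 0.203). Of 10 microvillus and ERM genes 1 was lower at 72 h, Eps8 (-0.46, SE 0.129), which is 10% called, beside 37.3% of all genes. At 24 h Espn (-1.80, SE 0.424) and Ush1c (-1.40, SE 0.44), both of brush border microvilli, were lower alongside Vil1, in the comparison where the proximal tubule marker sum differed. Ezr of the same list was higher then (0.30, SE 0.102). Of 12 tested genes 2 were lower and 1 higher (25%, beside 23.6% of all genes). Srf, the factor that binds CArG boxes, was higher at 36 h (7.54 to 13.3 TPM, 0.74, SE 0.127), and its cofactor Mkl1 was lower at 72 h (7.1 ± 1.34 to 5.7 ± 1.95 TPM, -0.31, SE 0.12). Of 5 tested genes in the list of other actins and actin-related proteins, 3 were higher at 36 h (60% called, beside 32.2% of all genes). They were the actin-related Actl6a (0.45, SE 0.083) and Actr1b (0.44, SE 0.121) and the actin Actc1 (0.79, SE 0.258). At 72 h 1 of 4 was lower (25% called, beside 37.3% of all genes), again Actc1, from 1.94 to 1.02 TPM.

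**Figure D5:**
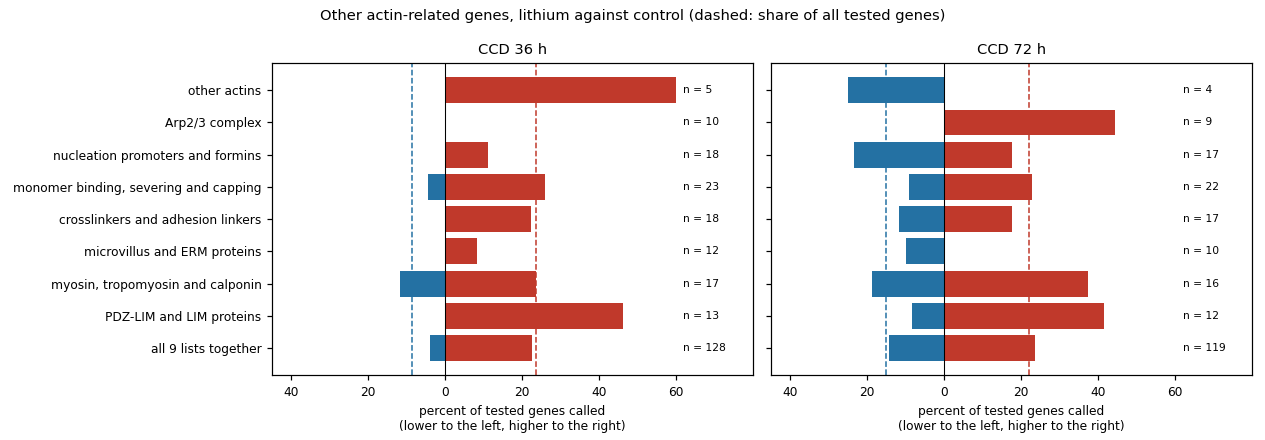
Percent of tested genes called higher (right, red) and lower (left, blue) with lithium in CCD for 8 lists of other actin-related genes and for all 9 lists together at 36 h and 72 h; n is the number tested and the dashed lines are the shares of all tested genes. All lists together reach 29 higher of 128 at 36 h and 28 higher of 119 at 72 h, near the dashed lines.

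Over the 10 group means of log2(TPM + 1), and among 10116 genes that reached 5 TPM in a group, the closest to Pdlim1 were Cdkn1a, a p53-induced inhibitor of cyclin-dependent kinases (Pearson r = 0.97), Cox6b2 (0.96) and Csnk2b (0.95). Cdkn1a went from 4.94 to 35.2 TPM at 72 h in CCD. Those closest to Actb were Mfsd5 (0.99), Cops6 (0.98) and Pqlc2 (0.98). For Scin they were Gpsm3 (0.93), Sdccag3 (0.91) and Gdpd1 (0.88), with much lower rank correlations (Spearman 0.552, 0.588 and 0.442). For Vil1 they were S100a8 (0.95), Smpdl3a (0.95) and Glyat (0.94), with Spearman 0.826, 0.842 and 0.903. Vil1 averaged above 1 TPM only in control CCD at 24 h (2.56 TPM), and S100a8 averaged 0 TPM in both CCD groups at 72 h. The 10 means share segments, times and library sets, so these values are descriptions.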

How the data were processed

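RNA-seq libraries were made from microdissected segments with poly(A) RNA, SMARTer V4 amplification and Nextera XT, per the labels' protocols. The deposited table gives TPM for 32754 genes in 75 libraries, made by the authors with STAR 2.5.2b, RSEM 1.2.31 and Rnor_6.0, which are named without roles in the submitters' processing notes. TPM keeps no read depth, so no counting error can be given, and every value is relative to the library's other transcripts. The kit does not mark strand, so overlapping antisense transcripts are not separated.

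Values were taken as log2(TPM + 1) and tested with limma 3.58.1 (R 4.3.3), two-sided, with a mean-variance trend and Benjamini-Hochberg adjustment over all genes that reached 1 TPM in as many libraries as the smallest group. The 6 early CCD groups shared a fit, as did the 4 groups of 72 h for segment and interaction contrasts. Tests were checked on simulated data with independent libraries and no library sets. That check does not cover scatter shared within a set. Calls were repeated with other pseudocounts, filters, scalings, a replicate block, set means and libraries left out. Figures and sums used Python 3.11.15, pandas 2.3.3 and matplotlib 3.10.9.

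The counts of 1 of the 9 lists are not reported here by themselves. The members and lists were chosen with earlier results of these data known, and the library sets were found in the data. Named besides the members are up to 2 called genes of smallest p in each direction per list and comparison, and the 3 genes most like Actb, Pdlim1, Scin and Vil1. Tmsb4x after 12 h and Actc1 at 36 h fall outside this rule and were chosen after their values were seen.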

Additional observations from a re-analysis of the deposited data

Results flagged for a closer look

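The lithium effect in CCD differed from that in cTAL at 72 h, by limma's interaction contrast on log2(TPM + 1), for Actb (0.476), Cfl1 (0.543), Dstn (1.093), Tagln2 (0.714), Pdlim1 (4.021) and Tmsb10 (1.301). In each the effect was larger in CCD, and Dstn, Pdlim1, Actb and Tmsb10 had differences below 0 in cTAL that were not called. The difference of Pdlim1 in cTAL, with means of 6.41 TPM in controls and 3.24 with lithium, was -0.76 and enters its value of 4.02.

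The lithium effect in CCD also differed between 12, 24, 36 and 72 h by limma's F test, with adjusted p of 0.0456 for Actb, 0.00124 for Actg1, 0.00128 for Cfl1, 1.07e-08 for Dstn, 2.36e-08 for Tagln2, 8.04e-06 for Pdlim1 and 9.27e-09 for Scin. For Dstn, Tagln2, Cfl1 and Pdlim1 the larger effects lay at 36 and 72 h, whereas for Scin and Actg1 they lay at 24 h, in the comparison whose controls stood apart. Actb was called in 10 of 34 alternative analyses of this test. As the members were selected on lithium differences in CCD, these calls and those of the interaction contrast are descriptions.

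One library stood far from its group. Dstn in the fourth lithium cTAL library was 108.7 TPM, with the other 9 at 117.4 to 125.6, a gap of 0.529 of the group's range. It was 1 of 10 such group values examined, and chance marks about 1 group in 20.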

How the results depend on the processing

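The 10 genes gave 1460 values under alternative analyses, of which 1378 stayed within 1 SD of the spread between libraries or, for the F test, kept their call. A further 48 moved by more, and 30 calls of the F test were lost and 2 gained. Turns of direction were counted only for differences called in the main analysis. Some that were not called also changed sign, as Actb in CCD at 12 h, which ran from -0.315 to 0.214. Among called differences 2 turned direction. Those 2 were Cfl1 between control segments, which came to -0.049 with median-of-ratios scaling and -0.018 with quantile normalization; the cause was not tested.

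At 12 h the 2 called members became 1 without the filter on low values, with median-of-ratios scaling, without the mean-variance trend and with the replicate block, and 0 on means of library sets; leaving out 1 library gave 0 to 3, with 0 without lithium replicate 2 and 1 without control replicate 1, control replicate 3 or lithium replicate 1. At 24 h the 7 members became 4 to 6 with 1 library left out, 4 without lithium replicate 2, and 2 on set means. At 36 h the 6 became 2 on set means. The 7 members of the F test became 0 on set means. In cTAL 1 member, Pdlim1, was called without control set 3, in place of 0.

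On set means fewer values enter, and the genes called were 3 in place of 1352 at 12 h, 302 in place of 3074 at 24 h, 675 in place of 4189 at 36 h, 1759 in place of 4338 at 72 h, 0 in place of 82 in cTAL, 485 in place of 2000 for the difference between segments and 17 in place of 1189 for the F test. In cTAL the 82 became 31 without a filter, 50 with a filter of 5 TPM, 23, 1 and 223 without lithium sets 1, 2 and 3, and 196 and 1 without control sets 3 and 4.

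Median-of-ratios scaling evened the split of calls higher and lower from 923 and 429 to 793 and 682 at 12 h, from 2385 and 689 to 1582 and 1435 at 24 h, from 3084 and 1105 to 2148 and 2004 at 36 h, from 2564 and 1774 to 2394 and 2326 at 72 h, from 13 and 69 to 21 and 54 in cTAL, and from 1550 and 450 to 1109 and 857 for the difference of effects. With quantile normalization lower calls outnumbered higher ones at 36 h (2025 higher and 2440 lower) and 72 h in CCD (2431 and 2852). The differences of Pdlim1 depended on the pseudocount and other settings through its low control level, from 2.391 to 3.626 at 72 h and 2.488 to 4.071 at 36 h, and those of Scin at 24 h from 2.143 to 3.938.

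Same-numbered control and lithium libraries did not deviate together: the correlations of their deviations ran from -0.186 to 0.250 over 17 pairs in CCD at 72 h, 5 of them over 0.1, and from -0.136 to 0.374 over 10 pairs in cTAL, and 0 of 17 and 1 of 10 libraries correlated best with their own number. With the replicate block 1 member was called at 12 h, 6 at 24 h, 6 at 36 h, 7 at 72 h and 0 in cTAL, where 1 gene remained called of all. Depth is unknown, so the limit it sets on the low values of Vil1 and Pdlim1 cannot be given.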

Other observations

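The 10 genes together made up 0.852% ± 0.0963 (SD, n = 17) of library TPM in control CCD at 72 h and 1.17% ± 0.154 (n = 19) with lithium, with overlapping ranges. In cTAL they made up 0.561% ± 0.0339 (n = 12) and 0.541% ± 0.0478 (n = 10). The summed actins relative to the summed severing proteins Cfl1 and Dstn stood at 12.3 ± 2.36 in control and 9.29 ± 1.3 in lithium CCD at 72 h. The early controls were higher, at 14.4 ± 0.544 (12 h), 17.8 ± 0.67 (24 h) and 16.9 ± 1.85 (36 h), and lithium libraries at 24 h and 36 h averaged 13.1 each. At both of these times the highest lithium library (13.5 and 13.9) lay below the lowest control (17.1 and 15.2). Relative to Pfn1 the summed actins were 10.5 ± 0.408 in controls and 7.07 ± 0.605 with lithium at 24 h (n = 3 each), with no overlap. At 36 h they were 9.19 ± 0.303 and 8.27 ± 0.435, also without overlap, and at 72 h 6.3 ± 1.11 and 6.36 ± 1.1, where the ranges overlapped.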
